A study of Mus musculus with 8 samples.

Results

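The genes described here mark the glial lineages of the embryonic forebrain: radial glia, astrocytes and the oligodendrocyte lineage. A list of 33 symbols was looked up in the deposited table of 15705 genes, and 32 of them were found and passed the filter on low values (Gjb6, a connexin gene, is not listed). They comprise 9 radial glial genes, 10 genes of astrocyte enzymes, transporters, channels and cytoskeleton, 4 genes of secreted astroglial proteins and 9 oligodendrocyte lineage genes. The genes were listed by name and lineage, with no measured value in the rule, though with earlier results of these data known. Polyadenylated RNA was taken from mouse embryos at E18.5, from the LGE (lateral ganglionic eminence), in which striatal projection neurons are born. The control group had 4 libraries of genotype Isl1 flx/flx, without Cre, and the conditional knockout (cKO) group had 4 libraries of genotype Dlx1-Cre; Isl1 flx/flx. Both groups therefore carried floxed alleles of Isl1, a LIM-homeodomain transcription factor gene, and Cre was present in the cKO alone, so that Cre and the deletion cannot be told apart. Dlx1 is active in progenitors and neurons of the ventral forebrain. The question is how these transcripts differ when Isl1 is deleted in that lineage.

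The measure is an adjusted read value for each gene in each library, described with the processing, and the sequencing depth is unknown. Isl1 itself held values of 3517 to 4186 in the libraries labelled control and 4930 to 5971 in those labelled cKO, which is no loss of the transcript. The sources used here do not say which exons are floxed, so this value does not check the labels. Control and cKO below mean the libraries so labelled. The labels name separate embryos but no litter or sex, and p-values measure only the spread between these samples. All 10 markers of LGE cells looked up, such as Foxp1, Bcl11b and Gad1, were present, with summed values of 77640 to 80801 in the controls and 76435 to 83105 in the cKO. Markers of pallial neurons, which lie outside the LGE, were lowest by mean log2 value in control replicate 3 (4.937) and cKO replicate 4 (5.418), against 6.536 to 7.352 in the other libraries. By summed value these were also the lowest of their groups (4942 and 5726), but cKO replicate 4 lay above control replicate 1 (5384). In bulk tissue, fewer cells of a type and less RNA per cell cannot be told apart.

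Radial glia are the stem cells that line the ventricle. They first give rise to neurons and, around birth, to astrocytes, and many of their genes stay active in astrocytes. Oligodendrocyte precursors, marked by the transcription factors Olig1 and Olig2 and the receptor Pdgfra, pass through a committed stage marked by Gpr17, Bcas1 and Enpp6 before they express myelin genes such as Mbp.

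Levels compared between genes are RPKM, which corrects for gene length, as deposited. The mean over the 4 control libraries ran from 0.0335 RPKM for Enpp6 to 1388 RPKM for Fabp7, where the median of all genes over the 8 libraries was 7.83 RPKM. Radial glial and shared astroglial transcripts were the most abundant. Fabp7, the brain lipid-binding protein of radial glia, stood at 1388 ± 63.3 RPKM (SD, n = 4), the protease inhibitor gene Cst3 at 394 ± 29.4, the lipid carrier gene Apoe at 252 ± 16.5 and the intermediate filament gene Vim at 196 ± 3.31. In all, 11 of the 32 genes lay in the top 10% of all genes by RPKM. The 10 astrocyte enzyme, transporter, channel and cytoskeleton genes spanned a wide range. Glul, the glutamine synthetase gene, stood at 113 ± 7.0 RPKM, Slc1a3 at 82.5 ± 5.34 and Aldoc at 55.7 ± 4.28, all in the top 10%. At the low end, Gfap, the astrocyte intermediate filament gene, was at 0.272 ± 0.0621 RPKM, and S100b, a calcium-binding protein gene, at 0.349 ± 0.0302. Of the astrocytic glutamate transporters, Slc1a3, which radial glia also use, was 9.31 ± 0.622 times as high in RPKM as Slc1a2 in the controls and 9.32 ± 0.481 times in the cKO (SD, n = 4). Within the oligodendrocyte lineage, Olig1 (19.2 ± 0.918 RPKM) and Olig2 (14.4 ± 1.08) stood above Lhfpl3 (5.29 ± 0.341) and Mbp (4.47 ± 0.489). Gpr17 (3.85 ± 0.684) differed from Mbp above it and from Pdgfra below it (3.57 ± 0.352) by less than its own SD. Cspg4 (1.84 ± 0.119), Bcas1 (1.23 ± 0.447) and Enpp6 were lower.

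**Figure D1:**
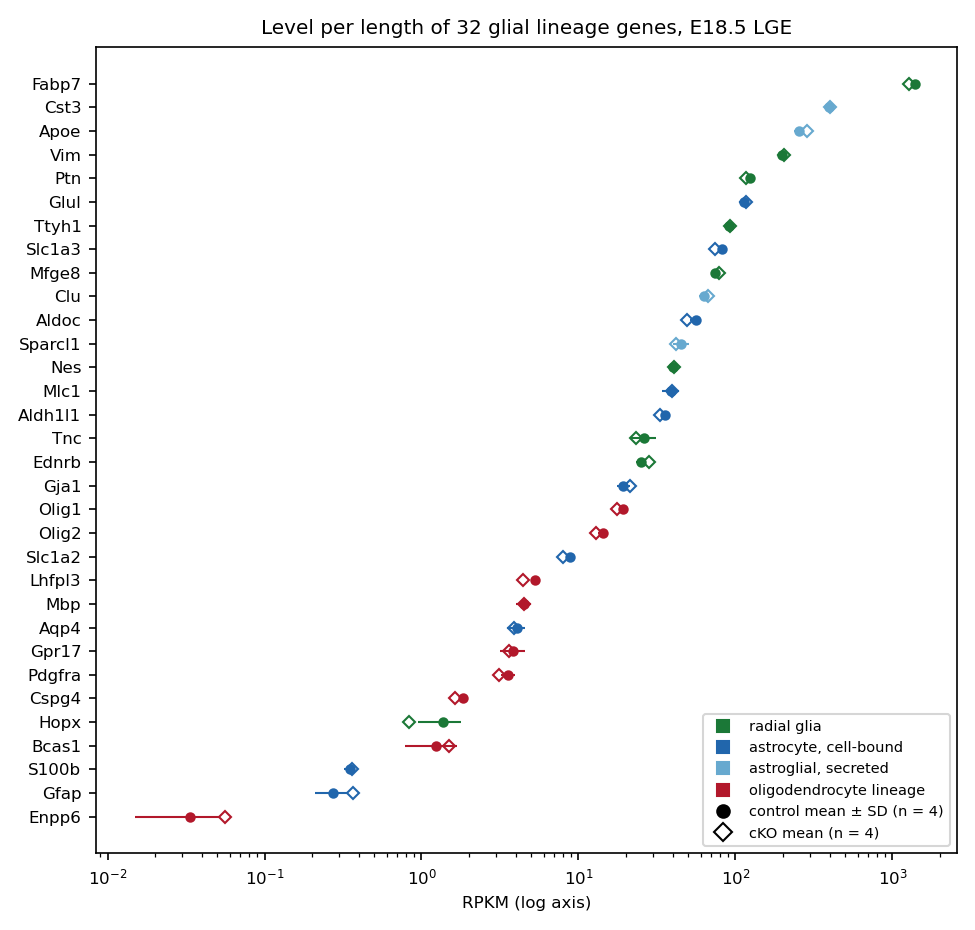
RPKM on a log axis for the 32 glial lineage genes, ordered by control mean, with filled circles for the control mean and its SD (n = 4), open diamonds for the cKO mean (n = 4) and colours for the 4 gene groups. Fabp7 is highest at 1388 RPKM, Gfap and S100b lie below 0.4 RPKM, and control and cKO means lie close together for most genes.

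None of the 32 genes passed the test between cKO and control (limma, Benjamini-Hochberg adjusted p under 0.05 over 15698 genes), where 6.66% of all tested genes did, 2.87% higher and 3.78% lower in the cKO. Their smallest adjusted p was 0.0547, for Lhfpl3. None passed without control replicate 3 and cKO replicate 4 either. Fewer of all genes passed there too, 216 higher and 394 lower, against 451 and 594 with all libraries. Over the 20 alternatives described below, 7 of the 32 genes passed in at least 1. At an unadjusted limma p under 0.05 there were 11 genes, 3 higher and 8 lower in the cKO, which is 34.4% of the 32 against 18.7% of all genes. In the authors' deposited table, none had an adjusted p under 0.05, against 6.54% of all tested genes, and 8 of the 32 had an unadjusted p under 0.05, against 14.2%. The median log2 fold change was -0.04 over the 32 genes and 0.01 over all tested genes, with 15 genes above 0 and 17 below, where 52.4% of all genes were above 0. Without regard to sign, the median size of the log2 fold change was 0.12 over the 32 genes and 0.08 over all tested genes. Among genes with a mean value of at least 200 it was 0.10 for the 27 glial genes and 0.06 for all. For 27 of the 32 (84.4%, against 73.8% of all genes) the 95% confidence interval of the log2 fold change lay within 0.5 of 0 on either side, and these are the 27 genes with a mean value of at least 200. Among genes of any kind with a mean of at least 200, 95.4% had such an interval. The interval reached beyond 0.5 for Hopx, Gfap, S100b, Bcas1 and Enpp6, the 5 genes with means below 200.

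**Figure D2:**
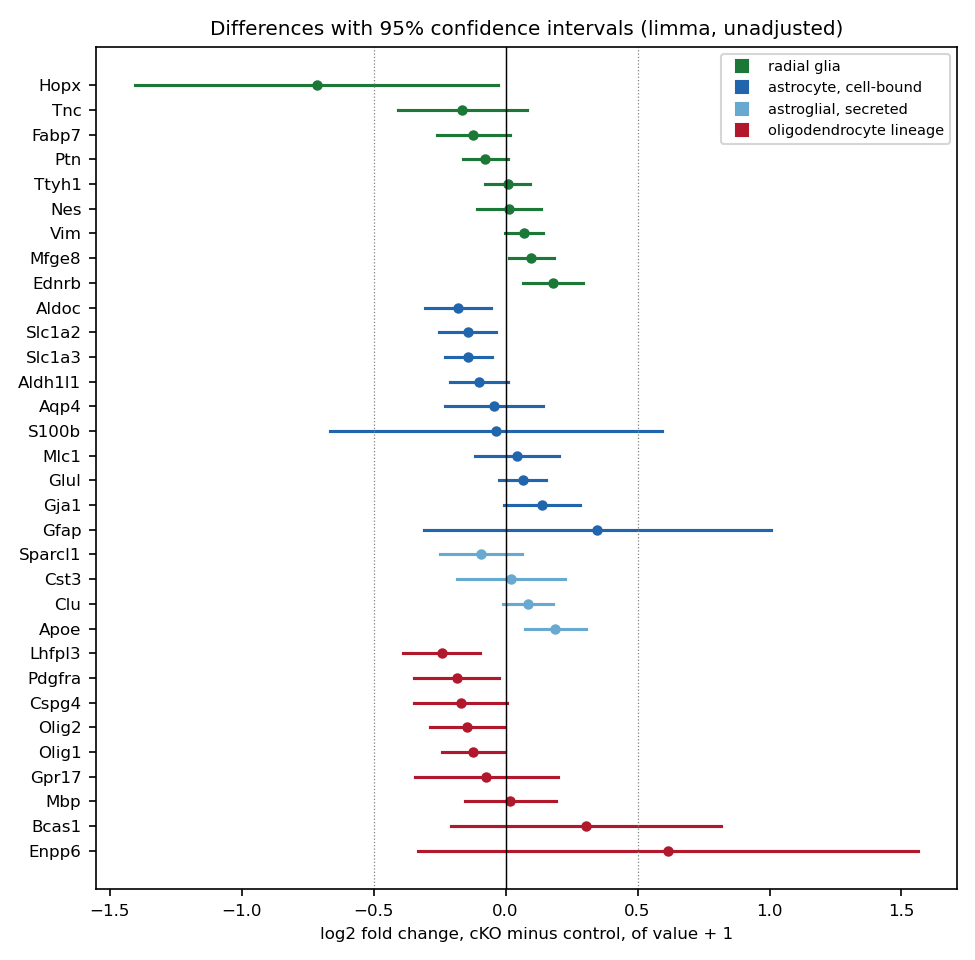
Log2 fold change of value + 1, cKO minus control, for each of the 32 genes (points) with its unadjusted 95% confidence interval (lines, limma), by gene group, with dotted lines at 0.5 on either side of 0. The intervals of the 5 genes of low value are wide, and those of the other 27 stay between the dotted lines.

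Among the radial glial genes, 5 of 9 had a log2 fold change above 0 and 4 below, none passed, and the median was 0.01. The endothelin receptor gene Ednrb held values of 2797, 2429, 2622 and 2596 in control replicates 1 to 4, and of 3120, 3092, 2768 and 2855 in the cKO. The groups overlapped in 1 pair only, the highest control (2797) and the lowest cKO library (2768). The mean was 13.3% higher in the cKO, a log2 fold change of 0.18 ± 0.05 (SE; limma adjusted p = 0.068). Ednrb passed when control replicate 1 (adjusted p = 0.0394) or cKO replicate 3 (0.0481) was left out. Mfge8, which encodes a secreted protein that binds phosphatidylserine, had control values of 3679 to 4031 and cKO values of 3916 to 4173 (log2 fold change 0.10 ± 0.04, adjusted p = 0.198). Hopx, a homeodomain-only protein of late radial glia, showed the largest difference of the 32 genes on the log2(value + 1) scale and a large spread. By the ratio of means, cKO over control, Enpp6 differed more (1.69, against 0.613 for Hopx). The Hopx values were 61, 59, 28 and 51 in the controls and 22, 41, 41 and 18 in the cKO. Control replicate 3 thus lay among the cKO libraries. The log2 fold change of Hopx was -0.72 ± 0.31, with a 95% interval from -1.40 to -0.03 and a limma adjusted p of 0.245. Control replicate 3 and cKO replicate 4, the lowest Hopx libraries of their groups, were also those lowest in pallial markers, and the part of that in the difference was not tested. The most abundant gene, Fabp7, ranged from 24320 to 26981 in the controls and from 20507 to 25455 in the cKO (log2 fold change -0.12 ± 0.06, adjusted p = 0.341), and the difference was -0.057 without cKO replicate 1. The matrix protein gene Tnc ranged from 3580 to 5374 in the controls and from 3364 to 4381 in the cKO (-0.16 ± 0.11, and -0.072 without control replicate 1). Vim, with control values of 8595 to 8893 and cKO values of 8847 to 9449, varied least of the 32 genes, with a residual SD of 0.0324 on the log2 scale. The growth factor gene Ptn (-0.08 ± 0.04), the intermediate filament gene Nes (0.01 ± 0.06) and the membrane protein gene Ttyh1 (0.01 ± 0.04) completed the group.

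Of the 10 astrocyte genes with transport, metabolic and structural roles, 4 had a log2 fold change above 0 and 6 below, and none passed. Both glutamate transporter genes, Aldoc and Aldh1l1 had lower means in the cKO, by amounts that did not pass. Slc1a3, the transporter GLAST (chromosome 15, 8634124 to 8710764, minus strand, GRCm38), held 8993, 8031, 8143 and 8326 in the controls and 7705, 7334, 7526 and 7779 in the cKO. Every cKO library was below every control library, as in 1 other gene of the 32 and in 6.33% of all tested genes. The mean of Slc1a3 was 9.40% lower (log2 fold change -0.14 ± 0.04, limma adjusted p = 0.0664). Permuting the labels of the 8 libraries exactly (two-sided) gave p = 0.0286, unadjusted, which is as small as this design allows. Any gene whose groups do not overlap has this p, so it adds nothing to the lack of overlap. Slc1a2, the transporter GLT-1, had values of 2599, 2697, 2414 and 2633 against 2449, 2351, 2158 and 2405. Only control replicate 3 lay within the cKO range of Slc1a2 (log2 fold change -0.14 ± 0.05, adjusted p = 0.121). Aldoc, which encodes the brain isozyme of the glycolytic enzyme aldolase, was at 4125, 3876, 3511 and 3902 in the controls and at 3265, 3416, 3714 and 3209 in the cKO. Replicate 3 was the lowest control and the highest cKO library for Aldoc, and the log2 fold change was -0.18 ± 0.06 (adjusted p = 0.094). Leaving out either of these libraries brought Aldoc past the threshold, with adjusted p-values of 0.0389 (control replicate 3 omitted) and 0.041 (cKO replicate 3 omitted). The folate enzyme gene Aldh1l1 differed by -0.10 ± 0.05 (adjusted p = 0.318).

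Channel and junction genes lay nearer to 0 or above it. Gja1, the gap junction protein connexin 43, ranged from 1291 to 1581 in the controls and from 1459 to 1700 in the cKO, a log2 fold change of 0.14 ± 0.07 (limma adjusted p = 0.285). Glul was at 0.06 ± 0.04, the membrane protein gene Mlc1 at 0.04 ± 0.07 and the water channel gene Aqp4 at -0.04 ± 0.09. Gfap was low in every library, at 22, 21, 31 and 33 in the controls and at 55, 42, 29 and 19 in the cKO. The Gfap values of the cKO thus reached both above and below those of the controls, and the interval of its log2 fold change ran from -0.31 to 1.00. S100b, at 13 to 15 in the controls and 9 to 22 in the cKO, had a log2 fold change of -0.03 ± 0.29.

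The secreted astroglial proteins showed 3 genes above 0 and 1 below. Apoe, the main lipid carrier of the brain, had values of 10331, 9889, 9187 and 9237 in the controls and of 10141, 11838, 10899 and 11194 in the cKO. Only cKO replicate 1 lay within the control range, and the mean was 14.0% higher in the cKO (log2 fold change 0.19 ± 0.05, limma adjusted p = 0.058). Apoe passed when cKO replicate 1 was left out (0.23, adjusted p = 0.014) and when control replicate 1 was (0.22, adjusted p = 0.0375). Apoe is also made by microglia, and of 12 microglial markers 10 rose in the cKO and none fell, against 2.87% of all genes that rose. The 12 markers summed to 2464 to 2730 per control library and to 3841 to 4604 per cKO library, and none of the 12 was at 0 in any library. The part of microglial RNA in the Apoe difference was not tested. The chaperone gene Clu was at 0.08 ± 0.04, Cst3, which microglia also express, at 0.02 ± 0.09, and Sparcl1, a matrix protein gene, at -0.09 ± 0.07, none of them past the test.

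**Figure D3:**
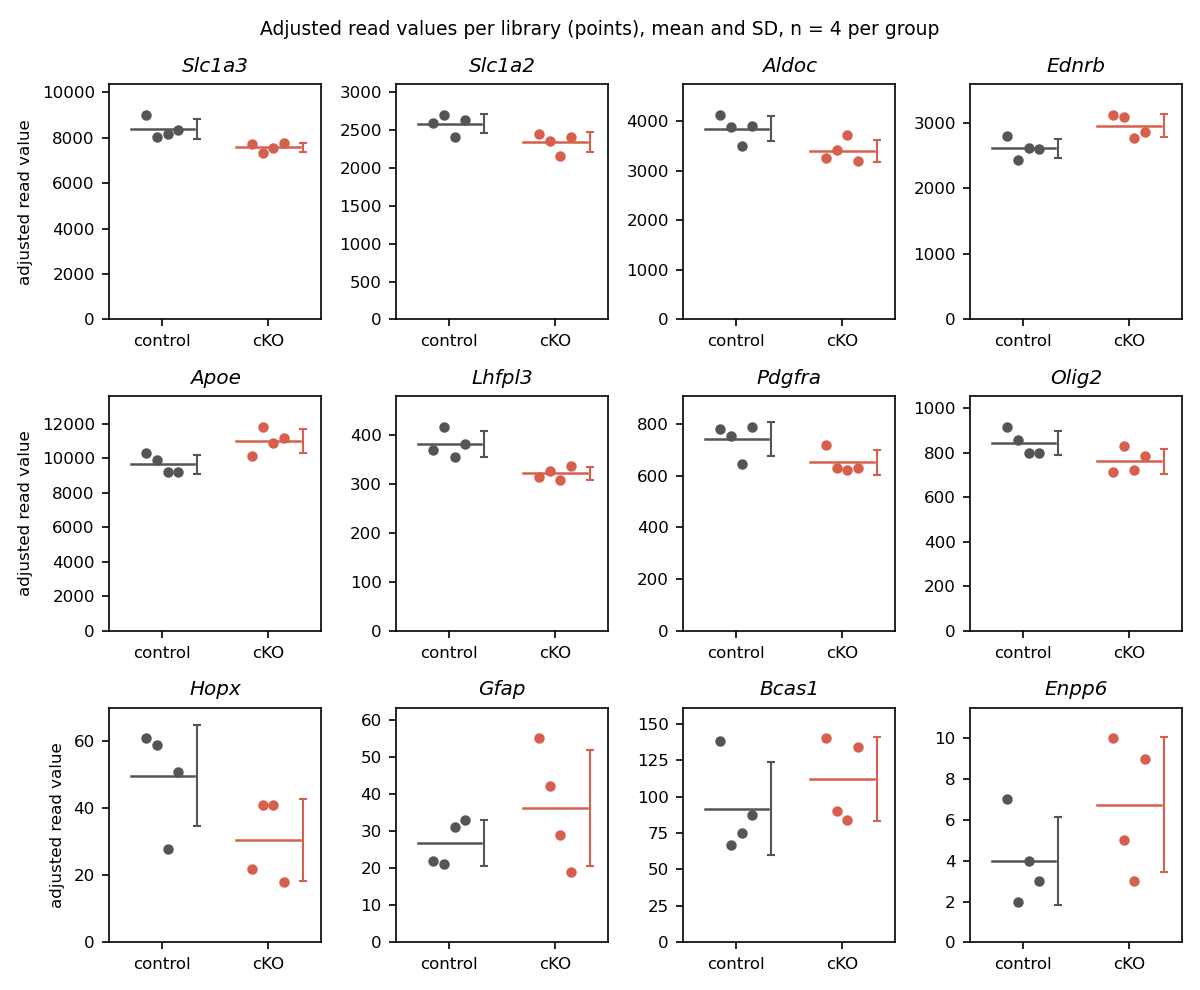
Adjusted read value in each of the 8 libraries (points, in replicate order within a group) for 12 of the genes, with the group mean (horizontal line) and SD (bar, n = 4). The groups of Slc1a3 and Lhfpl3 do not overlap, those of the other genes do, and Hopx, Gfap, Bcas1 and Enpp6 vary widely on values below 150.

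Among the glial genes listed here, the 5 of oligodendrocyte precursors had log2 fold changes below 0. The listed genes of later stages lay on both sides of 0, and the difference between these stages was not tested. The further oligodendrocyte lineage genes described below were not sorted by stage. Of those 24 genes, 10 had a log2 fold change above 0 and 14 below, and 1 rose (Tnr) and 1 fell (Zfp488). The 5 precursor genes Olig1, Olig2, Pdgfra, Cspg4 and Lhfpl3 had log2 fold changes between -0.24 and -0.12, and none of them passed. Lhfpl3, a tetraspan membrane protein gene of precursors (chromosome 5, 22746059 to 23275597, plus strand, GRCm38), had values of 370, 417, 356 and 381 in the controls and of 315, 326, 308 and 337 in the cKO. All cKO libraries were below all control libraries. The mean of Lhfpl3 was 15.6% lower. Its log2 fold change of -0.24 ± 0.07 had a 95% interval from -0.39 to -0.10, and the limma adjusted p was 0.0547. The exact permutation p was 0.0286, the value of any gene whose groups do not overlap. With median-of-ratios scaling the adjusted p was 0.0426. Lhfpl3 overlaps 6030443J06Rik on the same strand and A930003O13Rik on the opposite strand, and the sources used here do not say whether counting used strand. Pdgfra, the receptor through which platelet-derived growth factor drives precursors, held 780, 751, 644 and 789 in the controls and 720, 631, 623 and 628 in the cKO. For Pdgfra, control replicate 3 lay with the cKO libraries and cKO replicate 1 within the control range, and the log2 fold change was -0.19 ± 0.07 (adjusted p = 0.192). Without control replicate 3 it passed, at -0.25 (adjusted p = 0.0474).

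Olig2 and Olig1 are neighbours on chromosome 16 (Olig2 at 91225457 to 91228677 and Olig1 at 91269772 to 91271933, both on the plus strand). Olig2 was at 918, 857, 801 and 801 in the controls and at 712, 830, 722 and 787 in the cKO, where only cKO replicate 2 reached the control range (log2 fold change -0.15 ± 0.06, limma adjusted p = 0.245). Olig1 was at 1061, 1005, 984 and 980 in the controls and at 853, 961, 990 and 904 in the cKO, with cKO replicate 3 alone in the control range (-0.12 ± 0.05, adjusted p = 0.253). Cspg4, the NG2 proteoglycan gene, which pericytes also express, ranged from 328 to 379 in the controls and from 278 to 334 in the cKO (-0.17 ± 0.08, adjusted p = 0.285). None of 11 vascular markers passed, and their summed value was 7990 to 8369 in the controls and 8045 to 9733 in the cKO. Pdgfra is also a fibroblast gene, and of 6 meningeal fibroblast markers (5 of them listed), summing to at most 265 in any library, none passed. Among these fibroblast markers, Dcn was at 0 in some libraries and Lum is not listed.

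For the committed stage and myelin genes the groups overlapped, and none passed. Gpr17, a receptor gene of committed precursors, was at 583, 389, 471 and 485 in the controls and at 548, 424, 395 and 460 in the cKO (log2 fold change -0.07 ± 0.12). Bcas1 was at 138, 67, 75 and 87 against 140, 90, 84 and 134 (0.30 ± 0.23), and Enpp6 at 7, 2, 4 and 3 against 10, 5, 3 and 9 (0.61 ± 0.43). For all of Gpr17, Bcas1 and Enpp6, replicate 1 was the highest library in each group. Mbp was at 643 to 822 in the controls and 683 to 803 in the cKO (0.02 ± 0.08), a gene-level value that does not separate the myelin transcripts from the golli transcripts of the same gene, which neurons also make. Gpr17, like S100b, Glul and Ttyh1, overlaps a listed gene on the opposite strand. Summed over the 9 lineage genes, the values ran from 4504 to 4935 in the controls and from 4166 to 4393 in the cKO, without overlap. That sum is carried by the more abundant genes. The mean log2 value, in which all 9 weigh alike, overlapped, at 8.018 to 8.363 in the controls and 7.988 to 8.291 in the cKO.

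The sequence upstream of the start is shown for Slc1a3 and Lhfpl3, the genes of the 32 whose groups did not overlap, so that both can be compared. Each run gives the 250 bases before the RefSeq start (GRCm38.p6) on the strand of the gene, 5′ to 3′. The sequence that follows this start, apart from its first few bases, which were not compared, was found in a GENCODE transcript of Lhfpl3. It was found in none of Slc1a3. Capitals mark every match, on either strand, to 4 motifs: TAATTA, a homeodomain core; CANNTG, the E-box of basic helix-loop-helix factors such as Olig2; TTGGC, a core of nuclear factor I sites; and TATAAA, the TATA box.
Slc1a3, chr15:8710808-8711057, minus strand: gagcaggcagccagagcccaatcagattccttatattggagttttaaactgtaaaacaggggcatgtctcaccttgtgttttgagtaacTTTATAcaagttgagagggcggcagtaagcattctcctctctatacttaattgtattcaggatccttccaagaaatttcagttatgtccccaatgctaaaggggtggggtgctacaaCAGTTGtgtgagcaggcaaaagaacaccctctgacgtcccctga
Lhfpl3, chr5:22745804-22746053, plus strand: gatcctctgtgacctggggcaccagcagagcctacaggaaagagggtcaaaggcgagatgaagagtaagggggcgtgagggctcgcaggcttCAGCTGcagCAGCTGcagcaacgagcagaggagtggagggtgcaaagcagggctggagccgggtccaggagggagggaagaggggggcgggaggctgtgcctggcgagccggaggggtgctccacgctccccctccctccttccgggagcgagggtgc
The Slc1a3 window held 1 E-box and 1 TATAAA match, on the strand opposite to the gene, and the Lhfpl3 window held 2 E-boxes, with no match overlapping another. An E-box occurs in 66.2% of the 32851 promoter windows of this length, TATAAA in 12.4%, TTGGC in 41.5% and TAATTA in 4.84%. Among 26 of the listed genes with an entry, taken with 1 window per gene, 15 windows held an E-box, 13 TTGGC, 4 TATAAA and none TAATTA. The shares over all windows were not reduced to 1 window per gene. The windows were 44.8% G or C for Slc1a3 and 67.2% for Lhfpl3.

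Libraries of a group differed in their glial values. Control replicate 1 was the highest control library for 19 of the 32 genes (59.4%), against 25.2% of all tested genes, and cKO replicate 1 was the highest cKO library for 14 (43.8%), against 27.3%. Control replicate 3 was the lowest control for 13 genes (40.6%, against 23.4%), as was cKO replicate 3 in its group (40.6%, against 23.0%). Control replicate 1 also held a value of 3462 for Ttr, a choroid plexus transcript, where the other 7 libraries held 17 to 141. Whether this moves with the glial genes for a shared reason was not tested. The replicate SD, on the log2 scale and within groups, had a median of 0.104 over the 32 genes and 0.106 over all tested genes, and reached 0.640 for Enpp6. Among genes with a mean value of at least 200, the median SD was higher for the 27 glial genes (0.094) than for all (0.078).

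**Figure D4:**
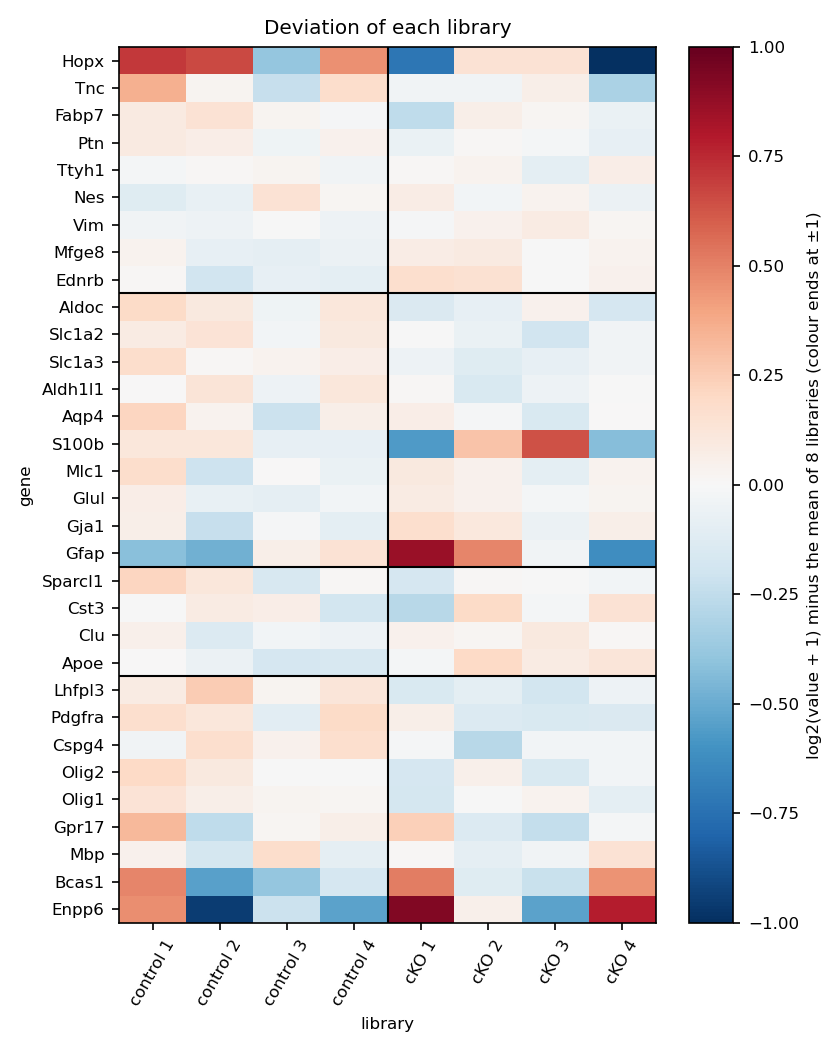
Deviation of each library from the mean of the 8 libraries, in log2(value + 1), for the 32 genes (rows, by gene group and ordered by their difference) and the 8 libraries (columns), with the colour scale ending at 1 on either side. Bcas1 and Enpp6 are high in replicate 1 of both groups and in cKO replicate 4, Hopx is low in cKO replicates 1 and 4, and most other cells are pale.

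Other genes of the same lineages were taken from lists that share no gene with the 32. Of 13 transcription factors of glial progenitors, 1 rose and none fell, with a median log2 fold change of 0.01, a count near the 6.66% of all tested genes that passed. The riser was Sox9, a factor required for gliogenesis, with values of 3516, 2696, 3036 and 3032 in the controls and of 4191, 3829, 3908 and 3966 in the cKO. All cKO libraries lay above all controls, and the log2 fold change was 0.38 ± 0.07 (limma adjusted p = 0.00502). Without both libraries lowest in pallial markers the Sox9 difference was 0.38 with an adjusted p of 0.0543. Sox2 (0.04) and the nuclear factor I genes Nfia (0.01) and Nfib (0.10) did not pass. Id1, a helix-loop-helix inhibitor, was at -0.29 ± 0.10 (adjusted p = 0.113), with no overlap between the groups.

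Of 32 further astroglial genes, 2 fell and none rose, with a median of -0.02, a count close to the share of all tested genes that passed (6.66%). Dio2, the deiodinase with which astrocytes activate thyroid hormone, was at 490, 628, 616 and 559 in the controls and at 360, 422, 477 and 410 in the cKO. It fell by 0.46 ± 0.10 on the log2 scale (limma adjusted p = 0.0145), and without both libraries lowest in pallial markers the log2 fold change was -0.41, with a larger SE (0.12) and an adjusted p of 0.119. Gpr37l1, an astrocyte receptor gene of low value here, was at 48, 56, 62 and 61 against 41, 31, 38 and 35, and fell by 0.63 ± 0.15 (adjusted p = 0.0265). Gpr37l1 no longer passed when control replicate 2, 3 or 4 or cKO replicate 2 or 4 was omitted, at adjusted p-values reaching 0.114. The peptide transporter gene Slc15a2 (-0.24 ± 0.08, adjusted p = 0.11), the Toll-like receptor interactor gene Tril (0.27 ± 0.09, adjusted p = 0.129) and the potassium channel gene Kcnj10 (-0.14 ± 0.05, adjusted p = 0.142) did not pass. Tril passed when control replicate 2 was omitted (0.34, adjusted p = 0.0412).

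Of 27 further oligodendrocyte lineage genes, 24 were listed, of which 1 rose and 1 fell, again near the 6.66% of all genes, with a median of -0.07. The myelin genes Mog, Mobp and Opalin are not listed. Tnr, the matrix protein tenascin-R, which some neurons also express, was at 632, 645, 636 and 722 in the controls and at 1213, 843, 839 and 1003 in the cKO. Tnr rose by 0.55 ± 0.10 on the log2 scale (limma adjusted p = 0.00773), and was at 0.51 ± 0.14 without both libraries lowest in pallial markers (adjusted p = 0.0847). Zfp488, a zinc finger factor of oligodendrocyte differentiation, went from 58, 49, 72 and 87 to 37, 8, 24 and 25. It fell by 1.60 ± 0.37 (adjusted p = 0.0249), and its call was lost without control replicate 3 (adjusted p = 0.0701) or 4 (0.073). Sox10, which defines the lineage, was at -0.08 ± 0.11, and the myelin gene Cnp was at -0.13 ± 0.04 (adjusted p = 0.104).

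**Figure D5:**
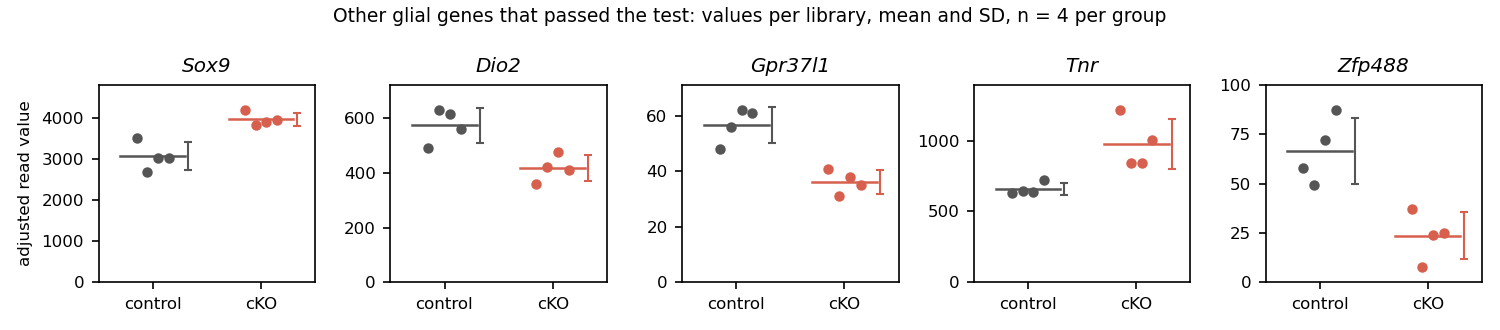
Adjusted read value in each library (points), group mean (line) and SD (bar, n = 4) for the 5 genes of the further glial lists that passed the test. Sox9 and Tnr are higher in every cKO library than in any control, and Dio2, Gpr37l1 and Zfp488 are lower.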

How the data were processed

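Per the submitters' processing notes, the authors' tools were STAR, featureCounts and edgeR with build mm10, and neither versions nor counting options are stated. Poly(A) RNA was isolated from 1 ug of total RNA and read as strand-preserving single-end libraries of 85 bp, per the labels' protocols. The deposited columns named as raw hold a score: adjusted, rounded values, not read counts. Their upper quartiles were 1624 to 1635 in all 8 libraries, and 1 direction of variation within the groups was nearly absent (singular value 0.000241, next smallest 0.0435, over 5711 genes with a mean above 1000). A factor was thus removed before deposit, so SDs, SEs and p-values, exact permutation p-values included, are too small to a degree. The deposited RPKM columns hold the same values per library sum and per length of the gene. The log2 fold changes and p-values that the authors deposited served as an alternative only; the sign is that of cKO over control.

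The design named limma for normalized values. On the scale of log2(value + 1), genes reaching 1 in 4 libraries or more entered the fit (15698, leaving out 7), and limma 3.58.1 (moderated test with a trend, R 4.3.3, with version 1.17.8 of the data.table package) compared cKO with control. Benjamini-Hochberg adjustment ran over all genes, with a threshold of 0.05. For low genes, fold changes on this scale can be smaller or larger than those the authors deposited. Enpp6 was at 0.61, against 0.92 in the authors' deposited table, and Zfp488 at -1.60, against -1.48. Confidence intervals are unadjusted. Exact permutation tests enumerated the 70 assignments. The fit was tested on simulated data. The named genes were all listed glial genes, Isl1 and, of every other list, those that passed and up to 3 with the smallest p. Foxp1, Sox2, Nfia and Sox10 were added for their roles, and a further gene so added is not reported here. The glial genes and all lists were chosen with earlier results of these data known. Alternatives were other pseudocounts, filters, scalings, RPKM, the missing direction as a covariate, a replicate block, a threshold of 0.5 on the log2 scale built into the test, and leaving out libraries. Coordinates are those of GENCODE on GRCm38, the assembly that mm10 denotes.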

Additional observations from a re-analysis of the deposited data

Results flagged for a closer look

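Of 64 groups of 4 libraries examined for the 32 glial genes, 2 had a library far from the other 3. Far means a gap to the nearest library above 0.829 of the group's range. That limit marks about 5% of groups of 4 independent, normally distributed values. A factor was removed from these values before deposit, so the 5% need not hold here. For Pdgfra, cKO replicate 1 was at 720 and the other cKO libraries at 623 to 631. For Cspg4, cKO replicate 2 was at 278 and the others at 331 to 334. Among the further glial genes named, Tnr had control replicate 4 at 722 and the other controls at 632 to 645.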

How the results depend on the processing

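Of 636 values from 20 alternatives of the 32 glial genes, 603 kept their direction and their side of the threshold, 12 (in 7 genes) passed, and 21 (in 8 genes near 0) changed sign. The deviations of same-numbered libraries correlated at 0.23, -0.0272, -0.11 and -0.534, so not every library correlated best with its own number. The factor removed before deposit had weights in both groups and ties their deviations to each other. These correlations therefore cannot decide whether the replicate numbers pair the libraries. In the fit with the replicate block, 551 of all genes rose and 648 fell, and of the glial genes 2 rose (Ednrb and Apoe) and 2 fell (Slc1a2 and Slc1a3). With median-of-ratios scaling 1 glial gene fell, Lhfpl3. Leaving out 1 library gave 0 to 2 glial genes that rose and 0 to 2 that fell. These were Apoe without control or cKO replicate 1, Ednrb without control replicate 1 or cKO replicate 3, Aldoc without control or cKO replicate 3, and Pdgfra without control replicate 3. No glial gene passed in the other alternatives. Of all genes, 451 rose and 594 fell, with 256 to 414 and 403 to 556 when 1 library was left out. Without control replicate 4, 256 rose, and without cKO replicate 4, 287. The count of risers was 290 with the missing direction as a covariate. Without control replicate 3 and cKO replicate 4 together, 216 rose and 394 fell, and against a log2 fold change of 0.5, 31 and 91. The genes whose sign changed did so when 1 library was left out, with log2 fold changes of -0.023 to 0.065 for Nes, -0.014 to 0.041 for Ttyh1, -0.12 to 0.019 for Aqp4, -0.018 to 0.11 for Mlc1, -0.25 to 0.15 for S100b, -0.040 to 0.12 for Cst3, -0.17 to 0.023 for Gpr17 and -0.037 to 0.081 for Mbp. Ttyh1 was also at -0.00023 with RPKM and -0.0049 without control replicate 3 and cKO replicate 4 together, and S100b at 0.018 in the authors' deposited table and 0.069 without those libraries. Among the further glial genes, Nfia ranged from -0.025 to 0.070 when 1 library was left out and was at -0.034 without those libraries. Of the further glial genes that passed, Sox9, Dio2, Gpr37l1, Tnr and Zfp488, none passed against a log2 fold change of 0.5. Gpr37l1 was also lost with the missing direction as a covariate (adjusted p = 0.067) and with the replicate block (0.0523). Without control replicate 3 and cKO replicate 4 together none of these 5 passed, with log2 fold changes of -0.57 for Gpr37l1 (adjusted p = 0.141) and -1.64 for Zfp488 (0.119), close to those of all libraries, and larger SEs. The cause was not tested. Depth is unknown, and the 5 genes with a mean below 200 have the widest intervals.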

Other observations

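Among cell types from outside the LGE parenchyma, none of 11 pallial neuron markers and none of 7 choroid plexus and ependymal markers (5 of them listed) passed limma. Tle4, a corepressor gene that striatal neurons also express, was nearest among the pallial markers, with a log2 fold change of 0.16 ± 0.04 (limma adjusted p = 0.0501), and passed in 6 of 20 alternatives, such as median-of-ratios scaling (0.0413) and without cKO replicate 1 (0.0283). Foxj1, the transcription factor of ciliated ependymal cells, which descend from radial glia, had means of 578 ± 52.9 in the cKO and 500.0 ± 26.6 in the controls (SD, n = 4), with a log2 fold change of 0.21 ± 0.07 and a limma adjusted p of 0.131 (0.0488 without cKO replicate 3). The choroid plexus gene Ttr, at -2.34 ± 1.14 (limma adjusted p = 0.305) with a single high control library, had an adjusted p of 0.000214 in the authors' deposited table, where Kcne2, at 21 in control replicate 1 and 0 to 5 elsewhere, was at 0.0454. Of the 10 markers of LGE cells, 3 rose (Adora2a, Dlx5 and Dlx6) and 1 fell (Ppp1r1b, by 0.74 ± 0.11 on the log2 scale). Of all tested genes 6.66% passed, 2.87% higher and 3.78% lower in the cKO. Dlx6 (0.33 ± 0.07, limma adjusted p = 0.0219) lost its call in 5 of 20 alternatives, among them without control replicate 1 (0.0552), cKO replicate 3 (0.0626) or cKO replicate 4 (0.0753).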
